A study of Mus musculus with 20 samples.

Results

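Eosinophils of undisturbed mouse lung were sequenced in 5 libraries of the 20 samples in the series, and their transcriptome is described here across genes, as abundance within that one group and without a comparison. The 5 libraries were chosen by their labels: untreated C57BL/6 mice, lung, eosinophils, no treatment. Each held cells that had been sorted by flow cytometry from the pooled lungs of 3 to 5 mice, so a library is called a pool below. The labels name neither the antibodies of the sort nor the age and sex of the mice. The other 15 samples are eosinophils from lung grafts and were not used. Counting reads per gene gave 8579398, 9826011, 9310726, 6666577 and 12883144 counts in pools 1 to 5, over 49315 gene identifiers. A floor of 3 counts, the limit that a count of 0 allows, came to between 0.233 and 0.450 CPM (counts per 1000000 of the library total), for counting error only. No 2 of the 5 libraries agreed within sampling noise (chi-square per degree of freedom of 6.58 or more in all 10 pairs). Levels are in CPM when pools are set beside each other. When genes are set beside each other they are in TPM (transcripts per 1000000), which also divides by exon length. Errors are SD over the 5 pools, and 5 values in a row are those of pools 1 to 5 in that order. Nothing in the labels says whether the mice of different pools were kept or handled separately, so the SD may be in part technical.

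Eosinophils are granulocytes that develop in bone marrow under GATA-1, C/EBP and PU.1 transcription factors and interleukin-5. Their granules hold basic and ribonuclease-like proteins that are packed while the cells mature, and the messages for these proteins are known to decline in mature cells. In lung they are also known for 15-lipoxygenase lipids, for chemokines and for type 2 cytokines such as interleukin-4, and a population of resident cells is present without inflammation.

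The genes that mark the sorted cells were present in every pool, and all 5 were lowest in pool 4, where 24.3% of the genes with a mean of 20 CPM or more were lowest. Alox15, the 15-lipoxygenase of lipid mediator synthesis (chromosome 11, 70344152 to 70352031, mm10), stood at 567, 903, 927, 450.5 and 859 CPM. Adgre1, the F4/80 surface receptor (chromosome 17, 57358691 to 57483527), stood at 512, 850.3, 835, 432 and 801 CPM. Ccr3, the eotaxin receptor (chromosome 9, 124021972 to 124031689), had 278, 483, 472, 177 and 463 CPM. In these 3 genes pools 2, 3 and 5 were high and close together, pool 1 was lower and pool 4 lowest. Siglecf, a sialic acid-binding inhibitory receptor (chromosome 7, 43351341 to 43359531), had 149.8, 204, 144, 117 and 167 CPM, with pool 2 highest. Il5ra, the interleukin-5 receptor alpha chain (chromosome 6, 106710357 to 106749037), had 38.6, 81.9, 63.6, 37.4 and 56.97 CPM. Per length they ranked Alox15 at 636 ± 196 TPM, Adgre1 at 446 ± 136, Ccr3 at 242 ± 93.3, Siglecf at 118 ± 26.9 and Il5ra at 32.8 ± 11.4. The order was the same within each pool, but the ranges over pools of neighbours overlapped from Alox15 down to Siglecf, and only Il5ra stood apart below the others. Their summed level ran from 1213 CPM in pool 4 to 2523 CPM in pool 2, a ratio of 2.08. A wider eosinophil list of 23 genes holds some genes of other granulocytes. It had 18 genes at 20 CPM or more in all pools, against 12.9% of all identifiers. Of its 20 genes with a mean of 20 CPM or more 12 were lowest in pool 4. In bulk libraries fewer cells of a type and less RNA per cell cannot be told apart.

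The promoters of 3 of these genes are shown because GATA factors are textbook regulators of eosinophil genes. Letters are RefSeq sequence on build GRCm38.p6, 250 bases before to 50 after the annotated start. Capitals mark matches to NGATAN with A or T first and A or G last, searched on both strands, and each run reads 5′ to 3′ along the gene.
Siglecf, chr7:43351091-43351390, plus strand: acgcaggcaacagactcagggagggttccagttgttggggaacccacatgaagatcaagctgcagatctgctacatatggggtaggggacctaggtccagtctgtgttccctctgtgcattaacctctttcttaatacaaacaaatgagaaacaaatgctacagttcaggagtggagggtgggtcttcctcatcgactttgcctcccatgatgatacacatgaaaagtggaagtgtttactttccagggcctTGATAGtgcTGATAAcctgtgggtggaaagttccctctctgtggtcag
Ccr3, chr9:124021721-124022020, plus strand: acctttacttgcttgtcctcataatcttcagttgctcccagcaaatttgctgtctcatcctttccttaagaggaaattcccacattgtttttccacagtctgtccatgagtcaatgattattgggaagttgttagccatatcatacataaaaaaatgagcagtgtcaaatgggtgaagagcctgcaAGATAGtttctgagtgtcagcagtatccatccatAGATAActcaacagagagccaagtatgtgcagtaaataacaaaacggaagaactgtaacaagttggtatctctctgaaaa
Il5ra, chr6:106748988-106749287, minus strand: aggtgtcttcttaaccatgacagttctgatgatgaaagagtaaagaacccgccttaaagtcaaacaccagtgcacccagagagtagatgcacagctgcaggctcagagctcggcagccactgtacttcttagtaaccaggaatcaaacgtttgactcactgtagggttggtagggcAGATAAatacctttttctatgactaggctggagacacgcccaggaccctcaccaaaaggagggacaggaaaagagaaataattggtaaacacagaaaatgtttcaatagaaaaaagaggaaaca
Siglecf held 2 matches, beginning at bases 3 and 12 of the transcript counted from 1 at the start, Ccr3 held 2, beginning 64 and 30 bases before it, and Il5ra held 1, 74 bases before it. Such a match stands in 29.8% of 32851 promoters of this length, so holding one is common. Of 4 further promoters read the same way, that of Retnlg held 1 match and those of Epx, Ccl6 and Cd9 held none, which says only that these letters are not in this window. The same windows were searched for PU.1 (GAGGAA) and C/EBP (TTGCNNAA) letters, not marked above. Siglecf, Ccr3 and Il5ra each held a PU.1 match, which stands in 28.3% of promoters. Retnlg held a C/EBP match, which stands in 10.8%. No promoter for Alox15, Adgre1 or Prg2 was used here. A match is a description of the letters, not a site.

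**Figure D1:**
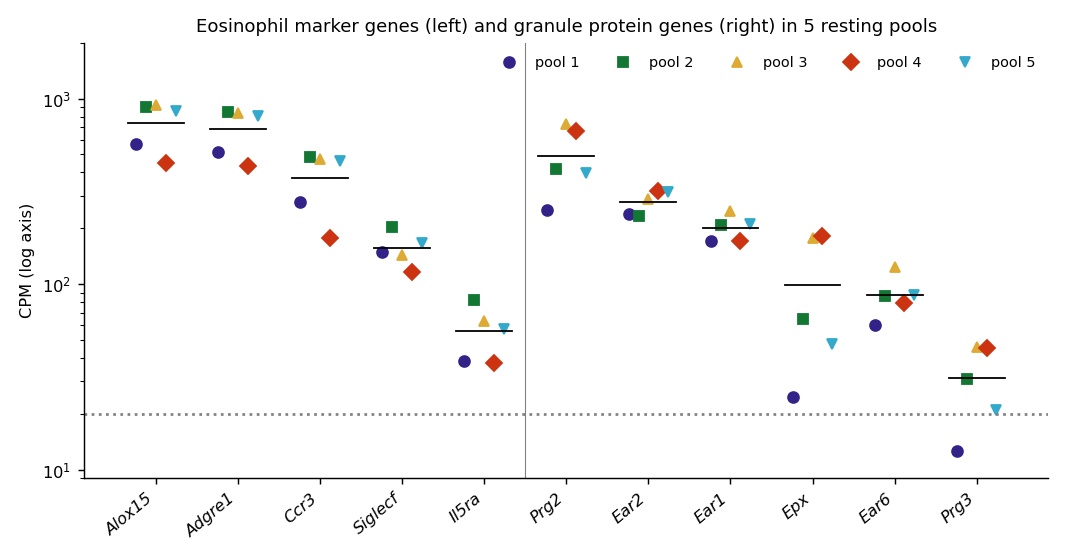
Level of 5 eosinophil marker genes (left) and 6 granule protein genes (right) in CPM on a log axis. Symbols are the 5 pools, horizontal bars the mean, and the dotted line 20 CPM. Pool 4 is lowest for each marker gene, whereas Prg2, Epx and Prg3 are high in pools 3 and 4 and lowest in pool 1.

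Granule protein genes followed the marker genes from pool to pool only in part. Prg2, the major basic protein (chromosome 2, 84980461 to 84983632), stood at 252, 418, 725, 666 and 399 CPM. Epx, eosinophil peroxidase (chromosome 11, 87864000 to 87875536), stood at 24.7, 64.9, 178, 181 and 47.4 CPM. Prg3, a homolog of the major basic protein, had 12.6, 30.9, 45.97, 45.001 and 20.96 CPM. In each of these 3 genes pools 3 and 4 were high and pool 1 lowest, so pool 4 was high for these messages and low for Ccr3. Epx differed 7.33-fold between its highest and lowest pool, and Prg3 fell under 20 CPM in pool 1. The ribonuclease genes varied less: Ear2 had 239.99, 232, 289, 317 and 314 CPM, and Ear1 had 169.9, 208, 247, 169.8 and 210.2 CPM. Ear6 had 60.4, 86.7, 123, 78.9 and 87.2 CPM. Ear1 and Ear6 were low in pools 1 and 4, as was Ccr3, whereas Ear2 was highest in pool 4. These Ear genes are close paralogs and their counts are uncertain where reads match several copies. Per length Prg2 stood at 1220.1 ± 461 TPM, above Ear2 at 810.3 ± 111, Ear1 at 577 ± 98.5, Epx at 74.6 ± 54.3 and Prg3 at 67.97 ± 30.4. Of 52 genes in a list of granule proteins of all leukocytes 42 reached 20 CPM in all 5 pools, against 12.9% of all gene identifiers, and the list's summed level was 32649 ± 1239 CPM, or 3.26% of counts.

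Of all 49315 identifiers 6382, or 12.9%, reached 20 CPM in all 5 pools, and these held 92.2 ± 0.58% of the counts. Another 734 had a mean of 20 CPM or more but fell under it in at least 1 pool, and 9039 had no count in any pool. Counts were not concentrated in a few genes. The highest gene held 1.95 ± 0.29% of a library, the 10 highest 8.74 ± 0.50%, the 100 highest 23.9 ± 0.70% and the 1000 highest 56.3 ± 1.20%, and 702 genes held 50%. Protein-coding genes made up 96.2 ± 0.12% of counts.

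**Figure D2:**
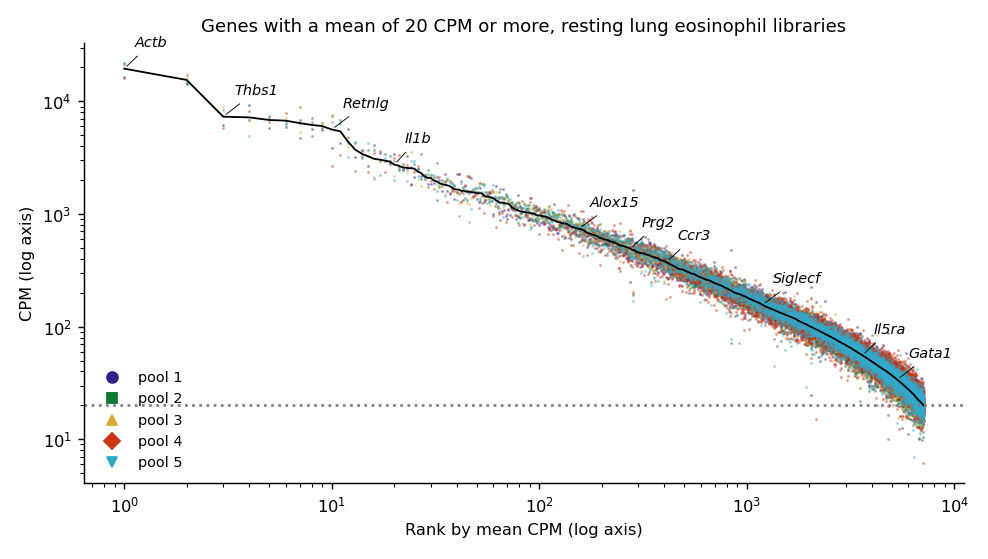
CPM of the 7116 genes with a mean of 20 CPM or more against their rank by mean CPM, both on log axes. Coloured points are the 5 pools, the black line the mean and the dotted line 20 CPM. The curve falls evenly from Actb at 19518 CPM, with Alox15 at rank 155, Ccr3 at rank 410 and Il5ra at rank 3606.

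The most abundant genes named structural proteins, mitochondrial messages and secreted products of myeloid cells. Actb, cytoplasmic actin, led at 16619, 22043, 21205, 16214 and 21507 CPM. Lars2, the mitochondrial leucyl-tRNA synthetase, came next at 15498 ± 1226 CPM. A list of ribosomal RNA and small RNA genes also holds Lars2, and what its reads derive from was not tested. Thbs1, the matrix protein thrombospondin-1 (chromosome 2, 118111876 to 118127133), was the third at 6172, 7347, 8841, 5822 and 8389 CPM, with pools 3 and 5 high and pools 1 and 4 low. Per length the highest official gene was Retnlg, a resistin-like secreted protein better known from neutrophils (chromosome 16, 48872621 to 48874496), at 20027 ± 8127 TPM. It had 3854, 7459, 7569, 2688 and 6580.2 CPM. The pools fell in the same order for Retnlg as for Alox15 (3, 2, 5, 1 and 4), and the highest and lowest pool differed 2.82-fold. Ccl6, a CC chemokine of myeloid cells, had 4271, 6788, 6467, 3359 and 6242 CPM, again with pools 1 and 4 low. Lyz2, lysozyme of myeloid cells, ran the other way at 6869, 4722, 5314, 8911 and 6289.7 CPM, with pool 4 highest. Other genes among the 20 highest by CPM were H2-D1, a class I histocompatibility gene, at 6834 ± 649.6 CPM, Srgn, the granule proteoglycan serglycin, at 3720.00 ± 887, and Fth1, ferritin heavy chain, at 3419 ± 237. Tgm2, transglutaminase 2, was at rank 24 with 2553 ± 729 CPM.

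Some high values belong to identifiers whose reads are hard to assign. Gm23935, annotated as a microRNA gene of 57 bases (chromosome 16, 11144125 to 11144181), held 6741 ± 796 CPM. Because of its length it took 24.7% of all TPM, so TPM of other genes are lower than they would be without it. Its sequence on GENCODE M21 is shown because another identifier has exactly the same letters.
Gm23935: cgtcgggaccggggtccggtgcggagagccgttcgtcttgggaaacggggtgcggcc
Gm24270, on chromosome 9, is identical to it over all 57 bases and held 298 ± 47.7 CPM, whereas Gm24187 differs by G11A, counted from 1 at the first base, and held 311 ± 20.9 CPM. Counts therefore differed 22.6-fold between identical letters, and Gm23935 lies within the span of Zc3h7a on the opposite strand. The labels do not say how a read that matches several places was counted. Gm49339, at 3254 ± 770.03 CPM, spans the inhibitory receptor genes Lilr4b and Lilrb4a (chromosome 10, 51480612 to 51496613). The values of the 2 genes could not be separated here.

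Receptors were well represented: of 380 listed genes 210, or 55.3%, reached 20 CPM in all 5 pools, against 12.9% of all identifiers, with a median of 72.7 TPM against 28.8 TPM for all such genes. The lists hold genes known from leukocytes, so a higher share than that of all identifiers says nothing particular about them. At the limit of 20 CPM, Tlr4 and Sirpb1a had 21.2 and 21.4 CPM in their lowest pool, just inside, and Acvr2a and Cd300e had 19.95 and 19.8, just outside.

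Cytokine receptors reached the minimum in 48 of 90 genes, against 12.9% of all identifiers. Il1r2, the decoy receptor for interleukin-1, led at 902 ± 195 TPM, followed by Csf3r, the G-CSF receptor, at 414 ± 141, and Tnfrsf1b, the type 2 TNF receptor, at 357 ± 39.9. Csf3r had 911, 666, 535, 1057 and 421 CPM, with pools 1 and 4 high. The chains that pair in the receptors for interleukin-5, interleukin-3 and GM-CSF differed in level: Csf2ra stood at 255 ± 34.6 TPM, the shared beta chain Csf2rb at 129.9 ± 20.8, Csf2rb2 at 50.3 ± 13.5 and Il5ra at 32.8 ± 11.4. Csf2rb had 390.1, 469, 471, 389 and 530.5 CPM. Il3ra, the interleukin-3 alpha chain, stood at 13.2 ± 1.12 CPM and missed the minimum. Il1rl1, the interleukin-33 receptor, was just above it at 24.7, 37.04, 28.03, 24.5 and 38.7 CPM. Il4ra, the chain shared by the receptors for interleukin-4 and interleukin-13, had 318 ± 36.2 CPM, and Il13ra1 126 ± 32.8 CPM. Il17rb, for interleukin-25, had 3.16 ± 0.674 CPM and Il9r 1.96 ± 0.91 CPM, while Il13ra2, the interleukin-13 decoy, had no count.

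Receptors for chemoattractants, lipids and amines reached 20 CPM in 42 of 114 genes, against 12.9% of all identifiers, and 22 were under 1 CPM on average. Adgre5, the adhesion receptor CD97, led at 866 ± 75.6 TPM, before C5ar1, for complement C5a, at 563 ± 24.1, Adgre1, and Ccr1, a receptor for several CC chemokines, at 388 ± 27.5. C5ar1 had 702, 711, 672, 737 and 630.2 CPM, and Ccr1 had 556, 534, 535, 492 and 502 CPM. Both were nearly even across pools while Ccr3 varied 2.74-fold. Cxcr4, the CXCL12 receptor, stood at 169 ± 26.9 CPM and Ptafr, for platelet-activating factor, at 228 ± 32.03 CPM. Several receptors used as eosinophil markers were low in these pools: Ptgdr2, the prostaglandin D2 receptor CRTH2, had 1.63 ± 1.27 CPM, Hrh4, a histamine receptor, 0.531 ± 0.738 CPM, and Cysltr1, a leukotriene receptor, 4.69 ± 2.27 CPM.

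Of 74 immunoglobulin-like, Siglec and Fc receptors 46 reached the minimum, against 12.9% of all identifiers. Adaptor chains were highest, Tyrobp at 4829 ± 447 TPM and Fcer1g at 1449.8 ± 116. Inhibitory receptors stood high among the rest: Pirb at 400.2 ± 106 TPM, Cd300a at 244 ± 33.9, Sirpa at 226 ± 22.97 and Cd300lf at 213 ± 48.99. Pirb, a paired inhibitory receptor known from eosinophils, had 679.9, 996, 891, 603 and 1078 CPM, with pools 1 and 4 low. Cd274, the inhibitory ligand PD-L1, had 117, 198, 161, 144 and 175 CPM, above Siglece at 52.2 ± 9.73 CPM. Pattern recognition receptors reached 20 CPM in 32 of 53 genes, led by Cd14 at 795 ± 232 TPM, Cd36 at 434 ± 66.1, Trem1 at 388 ± 98.2 and Clec7a, the beta-glucan receptor dectin-1, at 328 ± 61.8. Cd14 was high in pools 1 and 4, at 829, 567, 518, 936 and 454 CPM, whereas Olr1, a scavenger receptor, had 322, 458, 393, 239 and 415 CPM, with those pools low.

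Adhesion receptors passed most often among the receptor lists, in 42 of 49 genes, against 12.9% of all identifiers. Cd9, a tetraspanin abundant on eosinophils, had 1605, 2007, 2038, 1275 and 2076 CPM, or 1854 ± 401 TPM. Cd52 stood at 1294 ± 211 TPM, Itgb2, the beta-2 integrin, at 829 ± 107, Cd24a at 620.4 ± 147 and Itgb7 at 341 ± 77.1. Cd101, a surface marker used for inflammatory lung eosinophils, had 72.7, 45.1, 33.8, 74.7 and 28.3 CPM, with pools 1 and 4 high. Itgax, CD11c, had 100.1, 74.1, 93.1, 77.1 and 109 CPM.

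**Figure D3:**
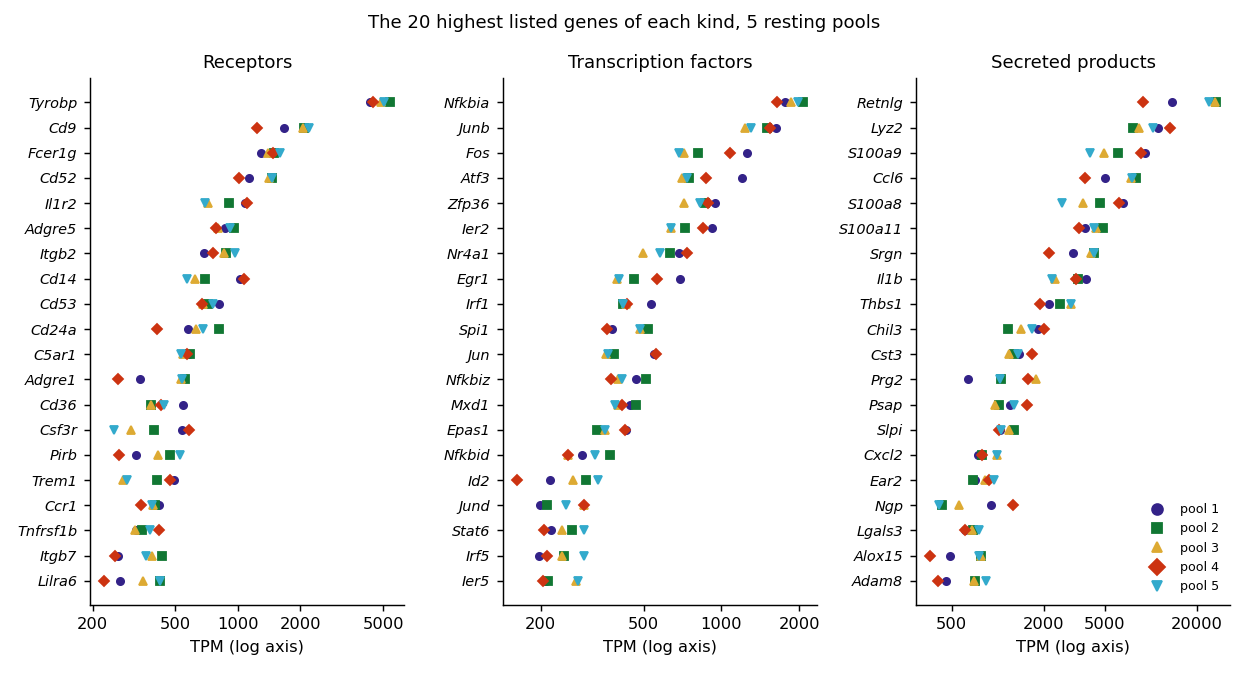
TPM on a log axis of the 20 highest listed receptors, transcription factors and secreted products, with a symbol for each of the 5 pools. Pool 4 is lowest for Retnlg, Ccl6, Cd9 and Adgre1 and highest for Lyz2 and Cd14.

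Transcription factors reached 20 CPM in all pools in 190 of 270 genes, or 70.4%, against 12.9% of all identifiers, at a median of 34.3 TPM against 28.8 TPM. Just inside the minimum stood Runx2 and Zbtb7b, at 20.1 and 20.2 CPM in their lowest pool, and just outside Gata1 and Tcf21, at 18.8 and 18.7. Among lineage factors (54 of 85), Spi1, which encodes PU.1, was highest at 445 ± 70.9 TPM and had 478, 658, 627, 492 and 601 CPM. Gata1, one of the factors under which eosinophils develop, had 27.5, 39.5, 42.5, 18.8 and 40.98 CPM, lowest in pool 4 as were the surface markers. Gfi1b, a repressor, had 67.4, 106, 134, 70.5 and 118 CPM. Cebpb stood at 134 ± 13.98 TPM and Id2, an inhibitor of helix-loop-helix factors, at 255 ± 67.3. Cebpe, a C/EBP factor of granule protein expression, was at 9.59 ± 2.20 CPM and under the minimum.

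Immediate early factors were among the highest of all transcription factors. Of 46 AP-1, ATF, EGR and NR4A genes 34 reached the minimum, against 12.9% of all identifiers. Junb stood at 1444 ± 167 TPM, Fos at 909 ± 248, Atf3 at 853 ± 206, Ier2 at 753 ± 127, Nr4a1 at 627 ± 93.8 and Egr1 at 502 ± 127. Fos had 1384, 895, 813, 1288 and 741 CPM, and Egr1 had 1463, 965, 852, 1277 and 828 CPM, both high in pools 1 and 4. Genes known to respond to tissue dissociation form a list that shares members with the one above, so a likeness of the 2 was partly built in. All 21 reached 20 CPM in all pools, against 12.9% of all identifiers. Their sum was 20046, 16981, 15418, 19560 and 15448 CPM in pools 1 to 5. Not every member was high in pools 1 and 4, where Nfkbia and Dnaja1 had their lowest values, those of Nfkbia by a small margin. The part of a response to dissociation in these levels was not tested.

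Of 44 NF-kB, IRF, STAT, SMAD and NFAT genes 39 reached 20 CPM, against 12.9% of all identifiers. Nfkbia, the inhibitor and target of NF-kB, led all listed factors at 1866 ± 171 TPM. It was nearly even across pools, with 1334, 1571, 1442, 1342 and 1473 CPM, a ratio of 1.18 between highest and lowest. Irf1 stood at 445 ± 50.002 TPM, Nfkbiz at 432 ± 55.2, Stat6, the signal transducer of interleukin-4, at 245 ± 35.4 and Irf5 at 238 ± 37.2. Stat6 had 455, 545, 515, 457 and 597 CPM. Among 96 KLF, MYC, FOX, hypoxia and nuclear receptor genes 64 passed, led by Zfp36, which encodes an RNA-binding protein that destabilises cytokine messages, at 848 ± 84.4 TPM, Mxd1 at 422 ± 32.2 and Epas1 at 378 ± 44.7. Epas1, which encodes HIF-2 alpha, is also abundant in lung endothelium. Hif1a had 350.4, 453, 513, 302 and 465 CPM, with pools 1 and 4 low.

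Secreted products covered a wide range: 138 of 271 genes, or 50.9%, reached 20 CPM in all pools, against 12.9% of all identifiers, at a median of 118 TPM against 28.8 TPM, and 31 were under 1 CPM on average. Nearest the minimum were C1ra and Angptl4, at 21.8 and 22.2 CPM in their lowest pool, and Angptl2 and Serpina3n, at 19.9 and 19.3. Cytokines and growth factors passed in 26 of 103 genes. Il1b, interleukin-1 beta, stood far above the rest at 3011 ± 660.1 TPM and had 3411, 2985, 2185, 3153 and 1996 CPM, lowest in pools 3 and 5. Il1a followed at 382 ± 134 TPM and was low in pools 1 and 4, with 279, 434, 441, 185 and 449 CPM. Metrnl, the hormone meteorin-like, stood at 348 ± 53.1 TPM, Osm, oncostatin M, at 315 ± 40.7, and Il1rn, the interleukin-1 receptor antagonist, at 227 ± 45.5. Il4 was the one type 2 cytokine at 20 CPM in all pools, with 84.97, 133, 121, 57.6 and 128 CPM, low in pools 1 and 4. Il13 had 2.76 ± 0.948 CPM and Il5 1.16 ± 1.27 CPM, while Il3 and Il9 had no count. Csf1, the macrophage growth factor, was almost even at 414, 437, 403, 433 and 430.3 CPM. Vegfa had 409 ± 72.1 CPM, Tnf 137 ± 30.2 and Il6 133 ± 23.4.

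Chemokines passed in 18 of 36 genes, against 12.9% of all identifiers. After Ccl6, at 6367 ± 1888 TPM, came Cxcl2, a neutrophil chemoattractant, at 859 ± 121, Ccl3 at 557 ± 95.8, Ccl4 at 380.4 ± 57.6 and Ccl9 at 282 ± 50.1. Cxcl2 had 719, 769, 994, 821 and 936 CPM, and Cxcl3, a related chemokine, had 84.2, 90.2, 188, 82.95 and 149.96 CPM, with pools 3 and 5 high for both. The eotaxin genes were low, Ccl11 at 2.14 ± 1.45 CPM and Ccl24 at 2.99 ± 1.55 CPM. Among 82 proteases, inhibitors, complement and matrix genes 54 passed. Beside Thbs1, at 2531 ± 500.2 TPM, these included Slpi, a protease inhibitor, at 1118 ± 113, Lgals3, galectin-3, at 673 ± 62.05, Adam8, a surface metalloprotease, at 625 ± 183 and Plaur, the urokinase receptor, at 573 ± 78.8. Adam8 had 1002, 1563, 1564, 962 and 1793 CPM, following Alox15 in that pools 1 and 4 were low, whereas Mmp9, gelatinase B, had 671, 693, 683, 695 and 526 CPM, lowest in pool 5.

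Enzymes of lipid mediator synthesis reached 20 CPM in all pools in 17 of 24 genes, against 12.9% of all identifiers. The enzyme lists below were also chosen genes, so their higher shares say nothing particular about them. Cyp4f18, a cytochrome P450 that inactivates leukotriene B4, led at 1403 ± 318 TPM, before Alox5ap, the 5-lipoxygenase activating protein, at 698 ± 132, Pla2g7, which degrades platelet-activating factor, at 673 ± 159.99 and Alox15. Pla2g7 had 760.3, 1049, 1145, 661 and 1029 CPM. Ltc4s, leukotriene C4 synthase, had 7.55 ± 2.24 CPM and Hpgds, a prostaglandin D synthase, 3.05 ± 0.438 CPM, both under the minimum. Oxidase and antioxidant enzymes passed in 23 of 26 genes, led by Gpx1 at 1817 ± 155 TPM and Cyba at 1431 ± 175, a membrane subunit of the NADPH oxidase. Its cytosolic subunit Ncf1 had 801, 1109, 1137, 668 and 1139.9 CPM. Survival and death genes passed in 22 of 30, led by Mcl1 at 309.9 ± 49.8 TPM, Pmaip1 at 302 ± 68.7 and Birc3 at 242 ± 42.8. Of 30 genes that signal below the interleukin-5 receptor 25 passed. The phosphatase Ptpn6 stood at 438 ± 58.3 TPM, and the STAT targets Socs3 at 349 ± 62.4, Pim1 at 231 ± 61.4 and Cish at 106 ± 19.9. Pim1 had 272, 421, 439, 267 and 446 CPM, with pools 1 and 4 low.

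The spread between pools beyond counting error was small for most genes. The between-pool coefficient of variation (CV), taken from the dispersion that edgeR estimates across all genes, had a median of 13.98% (quartiles 12.8% and 15.6%) over the 7116 genes with a mean of 20 CPM or more. In 318 of them the highest pool exceeded the lowest more than 2-fold. Receptors and secreted products at 20 CPM in all pools had a median of 15.3% each and transcription factors 14.2%, against 13.8% for all genes there. These values are drawn towards the trend over all genes, so large spreads are understated and small ones overstated. The SD of Retnlg was 39.5% of its mean CPM against a CV of 30.2%, and that of B2m 5.68% against 14.2%. The closeness of the quartiles is in part a result of this. The smallest CV by this estimate belonged to genes at a middle level. Among them was Cops8, a COP9 signalosome subunit, with 73.7, 65.7, 69.2, 72.3 and 67.8 CPM. The median CV was 13.1% at 50 to 100 CPM and 15.1% at 500 CPM or more. The level at which the smallest values stood is therefore also in part a result of the pull towards the trend. The widest spreads belonged to airway and granulocyte products. Bpifa1, an airway secretory protein, had a CV of 92.1% and 1641, 189.7, 205, 198 and 169 CPM, with pool 1 far above the others. Reg3g, an airway and gut lectin, followed at 71.3%, Epx at 70.7%, Ltf, lactoferrin of neutrophil granules, at 68.5% and the secretoglobin Scgb3a1 at 67.3%. Ltf had 475, 72.2, 131, 294 and 78.5 CPM, and Camp, the cathelicidin of neutrophil granules, had 155, 121, 97.3, 283 and 44.7 CPM. Ltf was highest in pool 1 and Camp in pool 4.

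**Figure D4:**
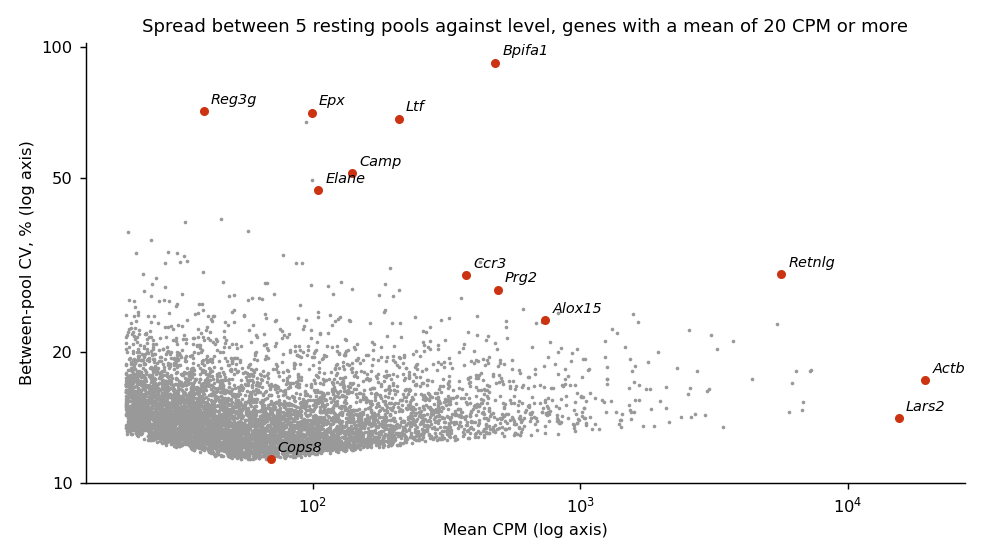
Between-pool CV in percent against mean CPM for the 7116 genes with a mean of 20 CPM or more, both on log axes, with some genes in red and named. The quartiles are 12.8% and 15.6%, while Bpifa1 stands at 92.1% and Retnlg, Ccr3 and Prg2 between 27.8% and 30.2%.

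Marker genes of other blood and lung cells were present in every pool. The neutrophil list had 14 of 19 genes at 20 CPM in all pools, against 12.9% of all identifiers, and summed to 11728 ± 1177 CPM. The 5 eosinophil genes summed to 2014 ± 595 CPM and the wider list of 23 to 7856 ± 714 CPM. The lists differ in number and length of genes, so these sums do not rank the cell types. Retnlg held 5630.1 ± 2226 CPM of the neutrophil sum and had the pool order of Alox15, with pools 1 and 4 low. That pattern was not particular to eosinophil genes, since Actb and Thbs1 were low in the same pools. Nor did all eosinophil genes share it, as Prg2, Epx and Prg3 were high in pool 4. Of the neutrophil list's members 14 of the 16 with a mean of 20 CPM or more were lowest in pool 5. Of all such genes 16.3% were lowest there. S100a8, a neutrophil calcium-binding protein, had 2148, 1524, 1218, 2162 and 843 CPM. Ngp, a neutrophil granule protein, had 517, 249.8, 329, 782 and 233 CPM, and Mpo, myeloperoxidase of granulocyte precursors, had 195 ± 74.8 CPM. Ly6g, the surface marker of mature mouse neutrophils, had 5.79 ± 2.10 CPM and Cxcr2, their chemokine receptor, 128 ± 56.3 CPM.

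Monocyte and interstitial macrophage genes were all highest in the pool where eosinophil surface genes were lowest. Of 19 genes 14 reached 20 CPM in all pools, against 12.9% of all identifiers. All 15 with a mean of 20 CPM or more were highest in pool 4, where 30.5% of all such genes were highest, and the list summed to 10706, 8027, 8536, 14182 and 10188 CPM in pools 1 to 5. Csf1r, the receptor of macrophage growth factor, had 556, 566, 604, 877 and 754 CPM. Ccr2, of inflammatory monocytes, had 87.1 ± 19.5 CPM and Cx3cr1, of patrolling monocytes, 80.1 ± 26.8 CPM. The complement gene C1qa had 13.03 ± 5.78 CPM. Dendritic cell genes reached the minimum in 7 of 15 cases, against 12.9% of all identifiers. Of these 7 genes 5 were highest in pool 4, against 30.5% of all genes with a mean of 20 CPM or more. Cd74, the invariant chain, had 2177, 2066, 1775, 3383 and 2142 CPM. Class II genes are also expressed by B cells and macrophages. Alveolar macrophages, which share Siglecf, Ear1 and Ear2 with the eosinophil lists, had 10 of 18 genes at the minimum and summed to 2982, 2392, 2671, 3126 and 2887 CPM. Their defining genes Marco and Fabp4 had 6.36 ± 2.75 and 11.2 ± 3.14 CPM, and Chil3 1265 ± 292 CPM.

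Lymphocyte messages differed by kind. B cell and plasma cell genes passed in 10 of 14 cases and summed to 1346, 972, 1265, 1513 and 1230.4 CPM. All 10 were lowest in pool 2, where 26.8% of genes were lowest, and Ighm, the heavy chain of immunoglobulin M, had 436, 361, 438, 532 and 419 CPM. T cell genes passed in 0 of 16, with a sum of 189 ± 32.1 CPM and Cd3e at 14.2 ± 4.02 CPM. Natural killer genes passed in 3 of 12, and those of group 2 innate lymphoid cells in 1 of 11. Of all identifiers 12.9% passed. Mast cell and basophil genes passed in 3 of 12: Hdc, histidine decarboxylase, had 1017, 988, 921, 1084 and 843 CPM, but the defining genes were low, with Mcpt8 at 4.96 ± 4.72 CPM, Cpa3 at 7.01 ± 4.02 and Mcpt4 without a count. Red cell genes summed to 1772 ± 327 CPM and platelet genes to 407 ± 94.4 CPM. All 6 members of each list with a mean of 20 CPM or more were lowest in pool 5, against 16.3% of all such genes.

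Genes of lung structural cells were also present, at summed levels that differed widely by list. Endothelial genes passed in 17 of 18 and summed to 4398, 3058, 3403, 4052 and 3119 CPM. Of 17 genes 11 were highest in pool 1, where 24.6% of all genes were highest, and 11 lowest in pool 2. Pecam1, the endothelial adhesion molecule CD31, had 563, 405, 441, 495 and 405 CPM. Alveolar type 2 cells passed in 10 of 11 genes, against 12.9% of all identifiers. Of these 11 genes 9 were highest in pool 4, against 30.5% of all such genes, and 10 lowest in pool 2, against 26.8%. Sftpc, the surfactant protein that defines them, had 2147, 1318, 1836, 2863 and 1592 CPM. Type 1 cell genes summed to 2207 ± 229 CPM. Airway genes summed to 4929, 2191, 2767, 1949 and 2254 CPM, with Scgb1a1, of club cells, at 1789, 1250.2, 1583, 771 and 1181 CPM. Fibroblast and pericyte genes (12 of 15) summed to 2005 ± 269 CPM. Sums were 232 CPM for smooth muscle (2 of 8), 143 for mesothelium (1 of 6) and 190 for lymphatic endothelium (2 of 6). Heart muscle genes (0 of 8) summed to 9.47 CPM and dividing cell genes (1 of 12) to 123 CPM. Of all identifiers 12.9% passed. Messages of mitochondrially encoded proteins summed to 25707, 19007, 18217, 21406 and 14191 CPM, and all 12 members with a mean of 20 CPM or more were lowest in pool 5, against 16.3% of all such genes. How much of any gene described above came from such cells was not tested.

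**Figure D5:**
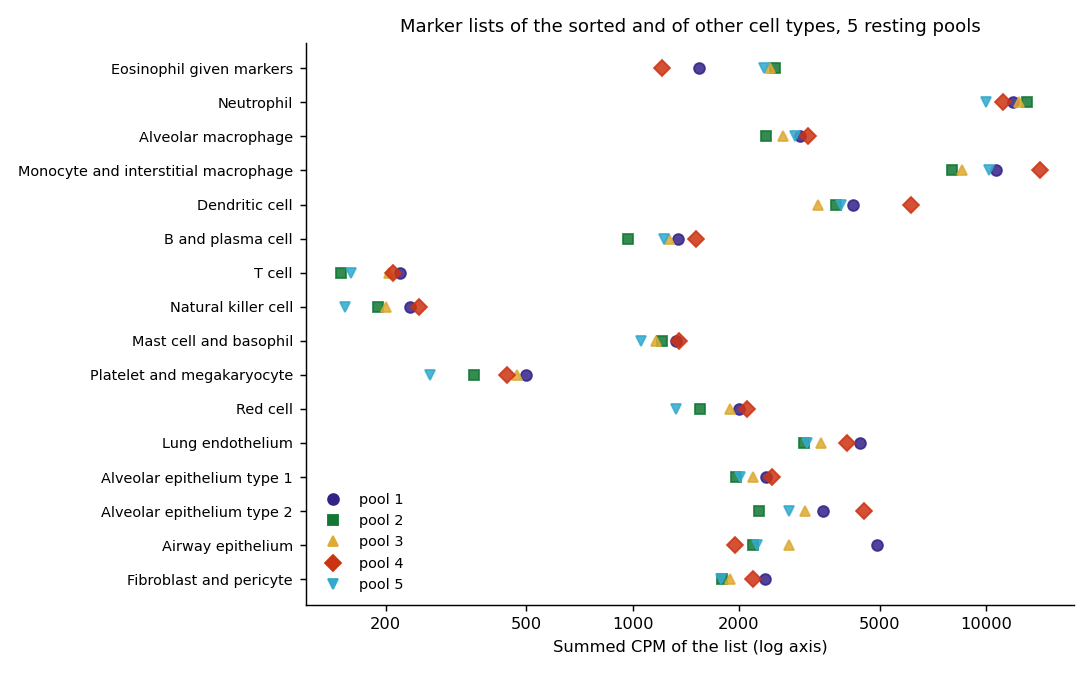
Summed CPM on a log axis of 16 lists of cell type markers, with a symbol for each of the 5 pools. Pool 4 is lowest for the 5 eosinophil genes at 1213 CPM and highest for monocyte and interstitial macrophage genes at 14182 CPM, and pool 1 stands apart in airway genes at 4929 CPM.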

How the data were processed

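RNA from eosinophils sorted from pooled lungs was extracted with Trizol and made into libraries with the NEBNext Ultra II kit, per the labels' protocols. The submitters' processing notes list the build mm10 and, with no roles or settings, STAR 2.5.2b, Subread 1.5.2, featureCounts, Trimmomatic 0.36 and bcl2fastq 2.17. The authors deposited unnormalized counts per gene, and the labels state neither the annotation release nor how strand and multiply matching reads were treated. Columns were tied to samples by name, which gave the 5 resting libraries. A further 10 columns in the same table, headed by bare numbers, were not used in any step.

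From the counts, CPM was computed on library totals and TPM on the length of the union of exons in GENCODE M21, which gave coordinates (counted from 1) and symbols for 49056 of 49315 identifiers. Between-pool CV is the square root of the tagwise dispersion from edgeR 4.0.16 in R 4.3.3 (TMM scaling, intercept only, robust, filterByExpr leaving 13744 genes). No groups were compared or tested, since 1 group is described, and Dixon's limit was used only to mark a pool that stood apart. The 43 gene lists hold 1387 entries, of which 16 matched no identifier and 2 matched several. The members, lists and rules were chosen with earlier results of these data known. Genes named by rule were the 20 highest by CPM and by TPM, up to 12 members of each functional list by TPM and those nearest to 20 CPM, the 4 highest of each marker list, the 12 largest and smallest spreads, and genes always named, of which a selection is printed. Values of 2 genes so named are not reported here. C1qa, Ccl11, Ccl24, Ccr2, Cx3cr1, Cxcr2, Cysltr1, Ddx3y, Eif2s3y, Fabp4, Gm10800, Gm23935, Gm24187, Gm24270, Gm42418, Gm49339, Hpgds, Hrh4, Il13, Il13ra1, Il13ra2, Il17rb, Il3, Il3ra, Il4ra, Il5, Il9, Il9r, Ltc4s, Ly6g, Marco, Mcpt8, Mpo, Ptafr, Ptgdr2, Siglece and Xist were named after their values were seen. Alternatives were other scalings (TMM, DESeq2 1.42.0 size factors), other minimums, another gene length, no filter, and leaving out each pool.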

Additional observations from a re-analysis of the deposited data

Results flagged for a closer look

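In 10 values of the text 1 pool stood apart from the other 4, that is, its gap to the nearest pool was more than 0.71 of the whole range (Dixon's limit for 5 values). Chance flags about 1 in 20 values, and 216 were examined. Bpifa1, an airway gene, had 1641 CPM in pool 1 against 169 to 205 CPM in the others. The summed level of airway genes, which holds Bpifa1, was 4929 CPM in pool 1 against 1949 to 2767 CPM. Heart muscle genes summed to 16.8 CPM in pool 1 against 6.66 to 8.65 CPM. Pool 4 stood apart for Cd74, at 3383 CPM against 1775 to 2177 CPM, for the mast cell gene Cpa3, at 14.1 CPM against 4.50 to 6.18 CPM, and for the sum of granule protein genes, at 34785 CPM against 31835 to 32669 CPM. Under TMM scaling pool 4 was not the highest for that sum but the fourth of the 5. Mki67 was highest in pool 2, at 59.9 CPM against 38.6 to 42.7 CPM, as was Hrh4, at 1.83 CPM against 0 to 0.310 CPM. The 57-base identifier Gm24187 was highest in pool 3, at 347 CPM against 296 to 308 CPM. Mmp9 was lowest in pool 5, at 526 CPM against 671 to 695 CPM. No cause of these was tested.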

How the results depend on the processing

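The count of 6382 genes at 20 CPM in all pools was 6365 with TMM scaling and 6365 with DESeq2 size factors, and leaving out 1 pool gave 6431 to 6502. A minimum of 50 CPM gave 3413. Taking only nuclear protein-coding genes lowered the share of counts in the 100 highest genes from 23.9% to 21.6%, and leaving out pools gave 23.7% to 24.1%. The median between-pool CV over 13744 genes was 0.168, or 0.154 to 0.176 without 1 pool and 0.693 with no filter on low counts, where most genes have few reads. TPM over nuclear protein-coding genes, an alternative added after seeing the data, raised the median of genes at 20 CPM in all pools from 28.8 to 45.4 TPM and each such gene 1.60-fold, which leaves their order as it was. With the longest transcript as gene length 91 of the 100 highest genes by TPM were shared. Each of the 300 alternative sums of gene lists lay within 1 SD of its value. For those that leave out 1 pool this was fixed in advance. Dropping 1 of 5 values cannot move their mean by 1 SD. Under TMM scaling, also added later for these counts, the counts given above of list members highest or lowest in a pool stayed within 1.5 times, with 15 of 15 monocyte genes still highest in pool 4, 14 of 16 neutrophil genes lowest in pool 5 and 10 of 10 B cell genes lowest in pool 2. Other such counts moved more, and members of the oxidase list highest in pool 4 went from 10 to 4. The summed granule proteins, highest in pool 4 on library totals, were highest in pool 3. Over all genes the share highest in pool 4 went from 30.5% to 21.1% and the share lowest in pool 4 from 24.3% to 32.3%. Without pool 1 the mean of Bpifa1 was 191 in place of 481 CPM, without pool 2 that of Hrh4 was 0.206 in place of 0.531 CPM, and without pool 4 that of Il5 was 0.660 in place of 1.16 CPM. Depth limits values near the floor of 3 counts, between 0.233 and 0.450 CPM. No paired analysis was possible because 1 group is described and no groups were compared.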

Other observations

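Genes of the Y chromosome were present in all 5 pools and Xist was not above the floor of 3 counts in any of them. Ddx3y, an RNA helicase gene of the Y chromosome, had 232, 239, 231, 180.5 and 254 CPM in pools 1 to 5, and Eif2s3y, a translation factor gene, had 110.4, 110.1, 98.7, 86.6 and 114 CPM. Xist, the RNA that coats the inactive X chromosome, had between 0 and 0.305 CPM.

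B2m, the light chain of class I molecules, stood at 6309.7 ± 450.1 TPM, with 2516, 2802, 2680.5, 2469.9 and 2473 CPM. Dividing cell genes were low, and Mki67, a nuclear protein of cycling cells, had 38.6, 59.9, 42.7, 38.9 and 40.5 CPM, with pool 2 highest. Kit, the stem cell factor receptor, had 182, 136, 158, 127 and 143 CPM, and Gata2, a factor of mast cells, basophils and progenitors, had 85.8, 70.3, 66.2, 96.001 and 55.7 CPM, while mast cell protease genes were low.

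A few identifiers without an official symbol were also among the 20 highest by CPM. Gm10800 had 4063, 3719, 2109.5, 3486 and 2065 CPM, high in pools 1, 2 and 4, and Gm42418, a long noncoding RNA on chromosome 17, had 3503, 2932, 2936, 3626 and 2213 CPM. What their reads derive from was not tested.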
